A study of Mus musculus with 4 samples.

Results

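Prostanoids are short-lived signalling lipids made from arachidonic acid, and 10 mouse genes of their synthesis, sensing and breakdown were described here. The sample titles name the cells as endothelial cells derived from induced pluripotent stem cells (iPSCs), while the labels' cell type entry reads iPSC. Such stem cells are body cells returned in culture to a state that can form any tissue. The genes were chosen by name, as the members Ptgs1, Ptgs2, Ptgis, Ptges, Ptges2, Ptges3, Tbxas1, Ptger4, Ptgr1 and Hpgd. Of these 10 genes, 8 were measured by 13 probe sets (the array's sets of short DNA probes), among 18193 measured genes in all. Ptgs1 had no probe set in the annotation used, and 2 probe sets of Ptges3 are annotated to its pseudogene as well, so no value is given for either. One group came from mice with diet-induced obesity (DIO) and the other from healthy control mice, all aged 24 weeks, with 2 mice and 1 array for each mouse in a group. The cells of both groups were grown in endothelial medium and trypsinized before RNA isolation. The sources used here do not give strain, sex, diet composition, the reprogramming method or the number of iPSC lines for each mouse. Where the lines were not made independently, p-values measure only the spread between these samples, which may be technical.

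Cyclooxygenases, encoded by Ptgs1 and Ptgs2, turn arachidonic acid into prostaglandin H, and terminal synthases turn that into the active prostanoids. In vessels, endothelial prostacyclin relaxes smooth muscle and restrains platelets, while thromboxane has the opposite action. Prostaglandin E acts on the vessel wall and on immune cells through several receptors, and prostaglandins are taken up and inactivated by an oxidation step and a reduction step.

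Each value below is the deposited log2 expression level, on which 1 unit is a factor of 2, and each difference is the DIO mean minus the control mean, with its standard error (SE) from a limma fit over all 18193 genes. The arrays of DIO 1, DIO 2 and control 1 correlated at 0.988 to 0.994 across genes, which are not independent replicates, and control 2 correlated with them at 0.963 to 0.976. Control 2 also stood apart by its markers of stratified (skin-type) epithelium. Those 11 genes averaged 7.68 and 8.48 on the DIO arrays and 6.54 and 11.45 on the control arrays, and each of the 11 was highest on control 2. The name "endothelial" in the titles was borne out only in part. The 12 endothelial markers averaged 6.10 and 6.0 in DIO and 6.18 and 6.36 in control. Cdh5, Esam and Egfl7 were at 8.27 or more on each array, while Tie1 and Emcn were under the 25th percentile of every array (4.05 to 4.12). Pluripotency markers were present on every array, at averages of 10.73 and 9.57 in DIO and 10.12 and 9.23 in control. The 6 markers of simple epithelium averaged 12.95 and 12.96 in DIO and 12.93 and 12.99 in control, with the keratin Krt8 at 14.0 to 14.09 and the adhesion molecule Epcam at 11.85 to 12.10 over the arrays. The 18S ribosomal RNA probe sets averaged 12.30 and 11.96 in DIO and 12.60 and 12.65 in control, so this measure of the RNA also separates the groups.

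None of the 8 measured prostanoid genes differed between the DIO and control cells after adjustment over all genes, at a threshold of 0.05. The comparison called 0 of 18193 genes at that threshold (0%), and 1198 at an unadjusted p below 0.05 (6.58%). Among the prostanoid genes 2 had an unadjusted p below 0.05, Tbxas1 and Hpgd, both higher in DIO. These were also the 2 of 8 genes whose DIO arrays both lay on the same side of both controls, which was so for 38.4% of all genes. By the sign of the difference 4 prostanoid genes were higher and 4 lower in DIO, with a median of 0.08 against 0.02 over all genes. The median of these genes turned to −0.12 without DIO 1 and −0.07 without the dimmest 40% of genes, which leaves out Tbxas1, and was 0.17 without control 1. The differences ran from −1.13 for Ptger4 to 0.62 for Hpgd.

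**Figure D1:**
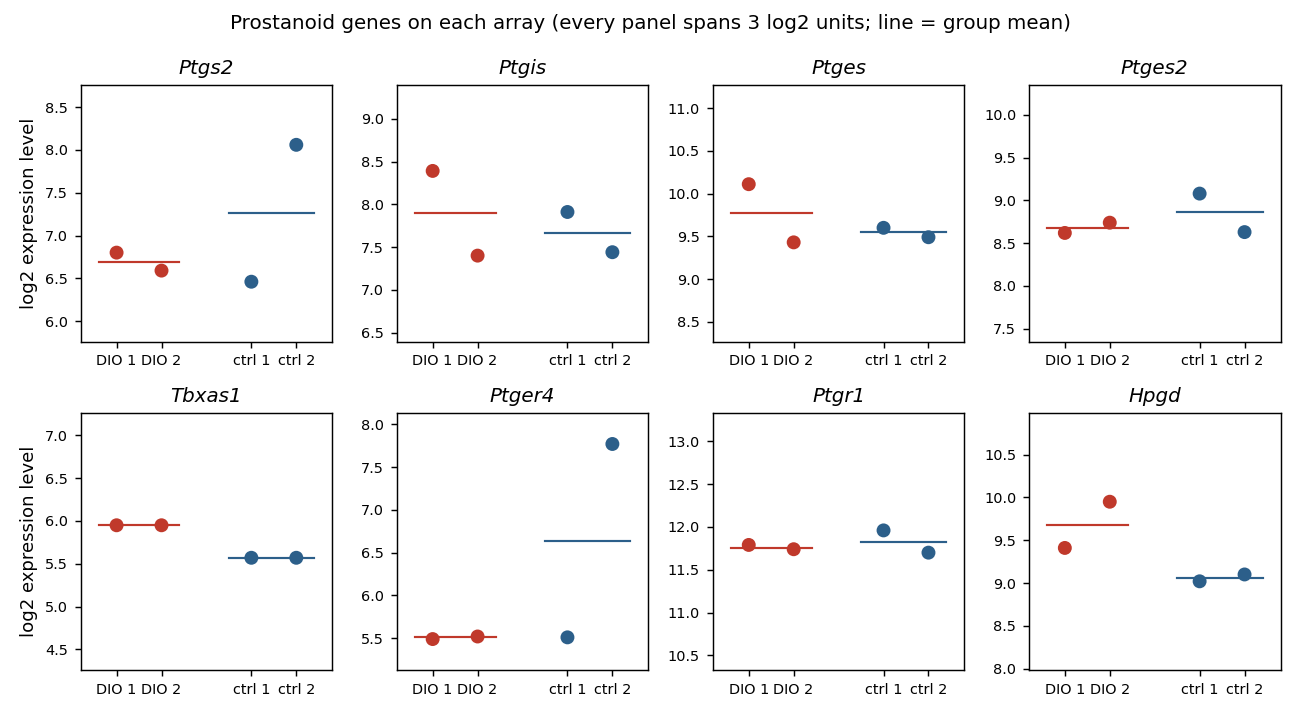
Log2 expression level (vertical axis, each panel spanning the same number of log2 units) of the 8 measured prostanoid genes on each DIO array (red, left) and control array (blue, right), with group means as lines. Ptgs2 and Ptger4 are high on control 2 alone, and both DIO arrays lie above both controls for Tbxas1 and Hpgd.

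Ptgs2, the inducible cyclooxygenase, was high on a single array. Its level was 6.80 and 6.59 on DIO 1 and DIO 2 and 6.46 and 8.06 on control 1 and control 2. Both DIO arrays thus lay between the controls. The DIO mean was 6.69 ± 0.15 and the control mean 7.26 ± 1.13 (SD, n = 2 each), a difference of −0.57 ± 0.57 (SE), with a 95% confidence interval from −2.14 to 1.0 (limma, adjusted p = 0.842). The difference was 0.23 with control 1 as the only control and −1.37 with control 2 as the only control. The second Ptgs2 probe set read 4.88 and 4.75 in DIO and 5.06 and 5.90 in control. It too was highest on control 2, and there both DIO arrays lay below both controls (difference −0.66 ± 0.31, limma over all probe sets, adjusted p = 0.576).

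Ptger4, the EP4 receptor through which prostaglandin E raises cyclic AMP, showed the same single high array. It stood at 5.49 and 5.52 in DIO and at 5.51 and 7.77 in control, so that 3 arrays were within 0.03 of one another and control 2 was 2.25 above the highest of them. Its difference of −1.13 ± 0.80 therefore had a wide interval, from −3.31 to 1.04 (limma, adjusted p = 0.783). Without control 2 it was 0.00, and without control 1 it was −2.26. The other Ptger4 probe set was dim, at 3.38 and 3.50 in DIO and 3.44 and 4.07 in control, and was again highest on control 2. Only on that array was this probe set above the 25th percentile of all probe sets.

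Control 2 exceeded each other array by 1 log2 unit or more for 2 of the 8 prostanoid genes, Ptgs2 and Ptger4, as it did for 635 genes in all (3.49%), a description chosen after the values were seen. Of the 11 stratified epithelial markers 10 did so, among them Krt1, a keratin of differentiated epidermis, at 7.79 and 9.89 in DIO and 5.77 and 12.96 in control. The endothelial markers did so in 1 of 12 cases and the pluripotency markers in 0 of 9. The part of the epithelial cells in the Ptgs2 and Ptger4 levels was not tested, and in bulk RNA fewer cells of a type and less RNA per cell cannot be told apart. Leaving out control 1 left control 2 as the only control, assumed to vary like the DIO pair. In that fit Ptgs2 (adjusted p = 0.0463) and Ptger4 (adjusted p = 0.0233) passed, together with 483 genes in all (2.65%). Leaving out any other array left 0 of the 8 past the threshold.

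**Figure D2:**
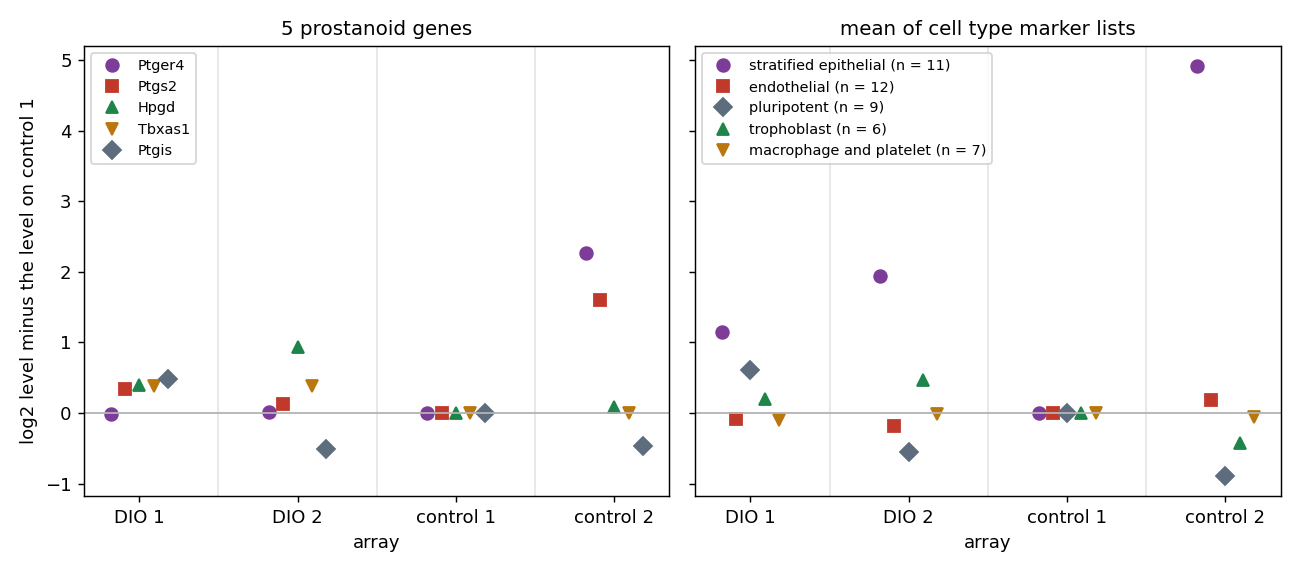
Log2 level minus the level on control 1 (vertical axis) on each array, for 5 prostanoid genes (left) and the mean of 5 marker lists (right, n = genes in the list). Ptgs2, Ptger4 and the means of the stratified epithelial and endothelial markers are highest on control 2, and Hpgd is highest on DIO 2.

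Promoter windows are shown for Ptgs2 and Ptger4 because both genes were high on the same array. They run from 250 bases before to 50 after the annotated start in RefSeq (build GRCm38.p6), at chr1:150099781-150100080 (plus strand) and chr15:5244138-5244437 (minus strand), 5′ to 3′ along the gene. Capitals mark matches, on either strand, to the motifs searched: TATAAA (the TATA box), GGGCGG (the GC box), the CCAAT box by its own letters, CACGTG (the E box), the letters TGACG (a core of the cyclic AMP response element) and the NF-kB consensus.
Ptgs2: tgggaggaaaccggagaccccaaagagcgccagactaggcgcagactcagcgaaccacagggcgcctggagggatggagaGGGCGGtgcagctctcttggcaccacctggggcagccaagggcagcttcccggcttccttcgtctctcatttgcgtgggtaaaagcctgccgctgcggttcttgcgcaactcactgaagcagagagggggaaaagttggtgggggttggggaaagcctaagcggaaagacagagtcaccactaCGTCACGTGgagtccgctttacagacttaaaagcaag
Ptger4: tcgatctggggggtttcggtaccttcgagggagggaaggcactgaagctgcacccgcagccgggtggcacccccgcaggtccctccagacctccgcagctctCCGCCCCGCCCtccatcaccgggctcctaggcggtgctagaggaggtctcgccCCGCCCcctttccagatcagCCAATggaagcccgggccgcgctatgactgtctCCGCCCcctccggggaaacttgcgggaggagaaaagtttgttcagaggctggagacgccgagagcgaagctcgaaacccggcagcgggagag

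The Ptgs2 window held 1 GC box and, at positions 14 to 22 after the annotated start, 1 cyclic AMP response core overlapping 1 E box. The Ptger4 window held 4 GC boxes, 2 of them overlapping, and 1 CCAAT motif. Neither window held a match to the NF-kB consensus. Over 32841 RefSeq windows of 300 bases, 35.7% held a GC box, 37.4% CCAAT, 20.8% the cyclic AMP response core, 7.15% the E box and 8.46% the NF-kB consensus. No motif of this set other than the GC box was found in both windows.

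Among the terminal synthases, Ptges and Ptgis were highest on DIO 1. Ptges, the inducible prostaglandin E synthase, was at 10.11 and 9.43 in DIO and 9.60 and 9.49 in control, a difference of 0.22 ± 0.27 (limma, adjusted p = 0.865). Its other 2 probe sets gave the same picture, at 8.27 and 7.70 in DIO against 7.90 and 7.83 in control, and at 8.23 and 7.62 in DIO against 7.75 and 7.88 in control. On all 3 probe sets DIO 1 was the highest array and DIO 2 the lowest. Without DIO 1 the difference was −0.12, and without DIO 2 it was 0.56.

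Ptgis, the prostacyclin synthase, was at 8.39 and 7.40 in DIO and 7.91 and 7.44 in control. The groups overlapped entirely, with DIO 1 and control 1 above control 2 and DIO 2. The difference was 0.22 ± 0.40, with a 95% confidence interval from −0.87 to 1.31 (limma, adjusted p = 0.912), and it was −0.27 without DIO 1 and −0.01 without control 2. DIO 2 was 0.99 below DIO 1, a larger gap than between the group means. The pluripotency markers also averaged more on DIO 1 and control 1 than on the other mouse of each group, and their part in the Ptgis level was not tested.

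Ptges2, a membrane-associated prostaglandin E synthase made constitutively, was at 8.62 and 8.74 in DIO and 9.08 and 8.63 in control. DIO 1 was the lowest array and control 1 the highest. Its difference of −0.18 ± 0.20 (limma, adjusted p = 0.858) became 0.05 without control 1. A decrease or increase of 1 log2 unit lies outside its 95% confidence interval, which ran from −0.73 to 0.37.

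Tbxas1, the thromboxane synthase, was the most even gene within the groups. It stood at 5.95 and 5.95 in DIO and at 5.57 and 5.57 in control. Both DIO arrays were above both controls, by a difference of 0.38 ± 0.12, or 1.30-fold (limma, unadjusted p = 0.0322, adjusted p = 0.728). The SD of either group was 0.00, so this SE rests almost wholly on the spread of the other genes, which the fit shares among them. With equal values within each group, leaving out an array cannot move the difference. An unadjusted p below 0.05 was reached in 3 of 9 alternatives, with p from 0.0208 to 0.159 over them. These levels lie near the medians over all probe sets, 5.60 to 5.64, and no detection call was used here, so how far they stand above background is unknown.

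Tbxas1 is known from platelets and macrophages. The 7 measured markers of those cells averaged 6.37 and 6.46 in DIO and 6.47 and 6.41 in control, and 2 had a higher and 5 a lower DIO mean. For 3 of the 7 the groups did not overlap, against 38.4% of all genes. Itgam and Pf4, the macrophage integrin and the platelet chemokine, were under the 25th percentile on every array, at 3.32 to 3.94. The panleukocyte gene Ptprc was at 4.11 and 3.95 in DIO and 3.84 and 3.86 in control, and the macrophage gene Adgre1 at 5.01 and 4.85 in DIO and 4.47 and 4.75 in control. Both DIO arrays were above both controls for Ptprc and Adgre1, with Ptprc near or under the 25th percentile on every array. Cd68, another macrophage gene, was at 10.73 and 10.53 in DIO and 11.09 and 10.30 in control, a difference of −0.07 ± 0.31. Csf1r, a receptor tyrosine kinase of macrophages, stood at 11.11 and 11.03 in DIO and 11.47 and 11.66 in control, with both DIO arrays below both controls (−0.49 ± 0.14, limma, unadjusted p = 0.0228, adjusted p = 0.728). The part of such cells in the Tbxas1 level was not tested.

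Hpgd, the hydroxyprostaglandin dehydrogenase that inactivates prostaglandins by oxidation, had the largest upward difference of the 8 genes. It was at 9.41 and 9.95 in DIO and 9.02 and 9.10 in control. Both DIO arrays were above both controls, and DIO 2 was the highest array. The DIO mean was 9.68 ± 0.38 and the control mean 9.06 ± 0.06 (SD, n = 2 each), a difference of 0.62 ± 0.23, or 1.53-fold (limma, unadjusted p = 0.0496, adjusted p = 0.728). It was 0.35 without DIO 2 and 0.89 without DIO 1, and an unadjusted p below 0.05 was reached in 5 of 10 alternatives. The second, dimmer Hpgd probe set read 4.82 and 5.31 in DIO and 4.84 and 4.62 in control. There DIO 2 was again the highest array, while DIO 1 lay between the controls (difference 0.34 ± 0.21, limma over all probe sets, adjusted p = 0.66).

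Picked after the marker values were seen, 2 marker lists also had means higher on both DIO arrays than on both controls, with DIO 2 highest. The means of the other marker lists did not have this order. The 6 measured trophoblast markers averaged 7.82 and 8.09 in DIO and 7.62 and 7.20 in control. Each of the 6 had a higher DIO mean, and 0 had an unadjusted p below 0.05 in limma. For 3 of the 6 both DIO arrays were above both controls, which was so for 21.4% of all genes. Of the 6, 1 was highest on control 2, Elf5, at 8.10 and 8.85 in DIO and 7.38 and 9.10 in control. The 7 mesenchymal and smooth muscle markers averaged 6.93 and 7.16 in DIO and 6.66 and 6.82 in control. Of these, 5 had both DIO arrays above both controls, against 21.4% of all genes. An unadjusted p below 0.05 was found for 1 of them, against 6.58% of all genes. This was the actin-binding gene Tagln, at 9.64 and 9.44 in DIO and 8.94 and 8.26 in control (0.94 ± 0.27, limma, adjusted p = 0.728). The other 2, Cnn1 and Col3a1, had a lower DIO mean. Col3a1 was highest on control 2, at 7.35 and 8.46 in DIO and 7.52 and 10.29 in control. The part of such cells in the Hpgd level was not tested.

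**Figure D3:**
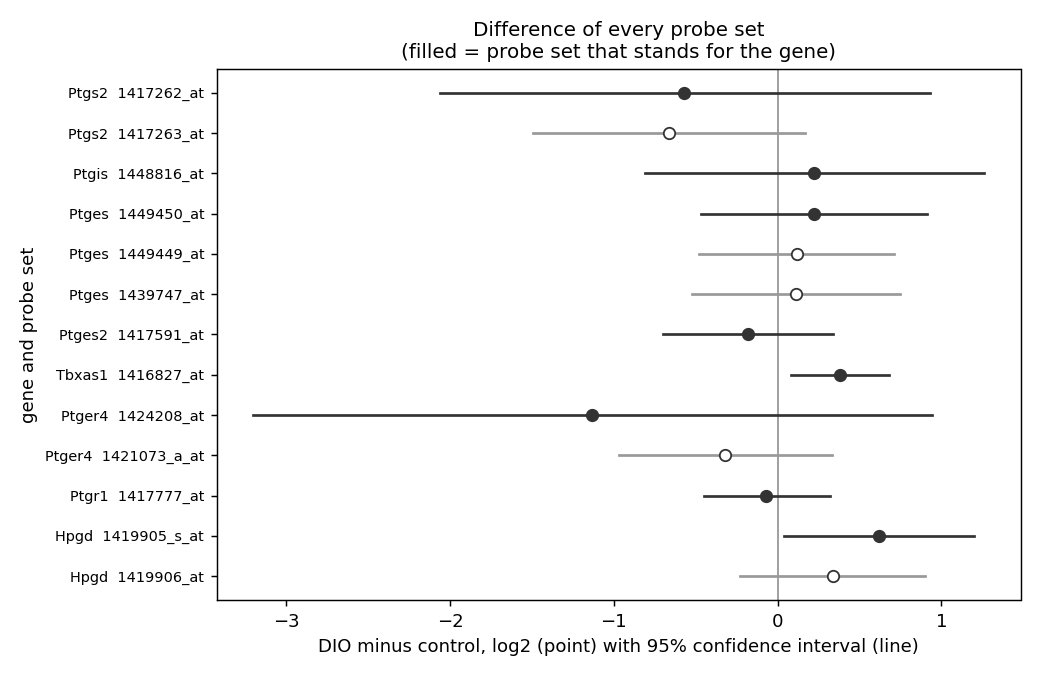
DIO minus control difference (log2, points) with its 95% confidence interval (lines) for the 13 probe sets of the 8 genes, fitted over all probe sets. Probe sets of one gene have differences of the same sign, and the intervals of Tbxas1 and of the brighter Hpgd probe set lie above 0.

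Tbxas1 and Hpgd windows are shown because these were the genes with both DIO arrays above both controls. They lie at chr6:38918736-38919035 (plus strand) and chr8:56294302-56294601 (plus strand) in GRCm38.p6, cover the same stretch around the RefSeq start and carry the same capitals as above.
Tbxas1: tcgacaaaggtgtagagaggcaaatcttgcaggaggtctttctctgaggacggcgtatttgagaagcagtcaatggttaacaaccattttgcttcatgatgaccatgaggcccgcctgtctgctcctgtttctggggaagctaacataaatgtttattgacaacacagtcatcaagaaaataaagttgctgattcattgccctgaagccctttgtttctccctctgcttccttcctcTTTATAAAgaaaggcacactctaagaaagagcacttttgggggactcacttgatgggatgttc
Hpgd: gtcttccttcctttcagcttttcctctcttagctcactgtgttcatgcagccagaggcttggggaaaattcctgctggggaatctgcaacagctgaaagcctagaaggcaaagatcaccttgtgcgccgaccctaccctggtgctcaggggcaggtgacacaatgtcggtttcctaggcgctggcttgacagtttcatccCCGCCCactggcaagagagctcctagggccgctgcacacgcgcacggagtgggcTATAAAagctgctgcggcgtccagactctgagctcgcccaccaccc

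Both windows held the letters of a TATA box, present in 13.6% of all windows. In Tbxas1 it was read on both strands, in overlapping matches from position −13 to −6, and in Hpgd on the gene's strand from position 5 to 10 after the annotated start. Hpgd also held 1 GC box. None of the other measured genes with a window (Ptgs2, Ptges, Ptges2, Ptger4 and Ptgr1) held TATAAA. Windows were found for 9 of the 10 genes, and Ptgis had none in the table.

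Ptgr1, a reductase that completes the inactivation of prostaglandins and also of leukotriene B, was at 11.79 and 11.74 in DIO and 11.96 and 11.70 in control. The DIO arrays lay between the controls. The difference was −0.07 ± 0.15, with a 95% confidence interval from −0.48 to 0.34 (limma, adjusted p = 0.933), and it became 0.06 without control 1.

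**Figure D4:**
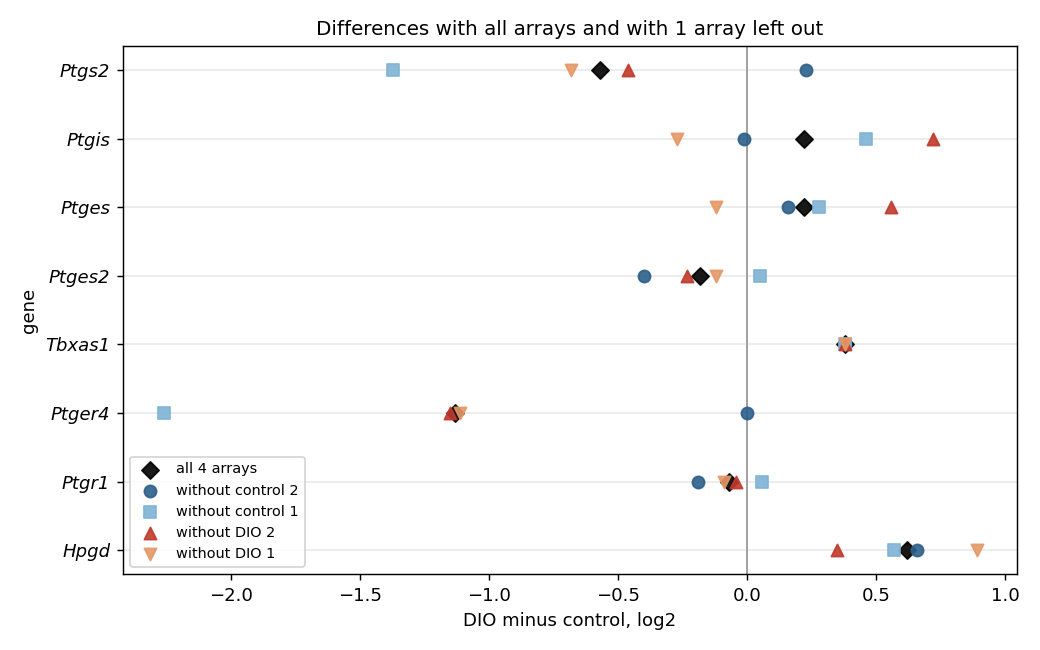
DIO minus control difference (log2) of the 8 genes with all 4 arrays (black diamonds) and with each array left out in turn. Hpgd runs from 0.35 to 0.89, Ptgs2 from −1.37 to 0.23 and Ptger4 from −2.26 to 0.00.

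The genes around these 8 were taken as 5 lists, of which 53 of 57 genes were measured. After adjustment 0 of the 53 passed, and 4 had an unadjusted p below 0.05 in limma, against 6.58% of all genes. By group, 24 had a higher and 29 a lower DIO mean, with a median of −0.01, where 53.3% of all genes were higher. For 18 of the 53 both DIO arrays lay on the same side of both controls, against 38.4% of all genes. Control 2 exceeded each other array by 1 log2 unit or more for 5 of the 53, as for 3.49% of all genes.

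Arachidonate release, by phospholipases and related lipases, had 6 of 19 genes higher and 13 lower in DIO, with a median of −0.12. Plaat3, the brightest, differed by −0.12 ± 0.18. Pla2g2a, a secreted phospholipase and the one with the smallest p, was at 4.50 and 4.53 in DIO and 3.96 and 4.24 in control (0.41 ± 0.16, limma, adjusted p = 0.728). These Pla2g2a levels lie near the 25th percentiles over all probe sets, 4.05 to 4.12, so how far they stand above background is unknown. Pla2g4a, the cytosolic phospholipase that feeds cyclooxygenase, is named after its values were seen. It was at 5.88 and 6.41 in DIO and 5.13 and 8.39 in control, so it too was highest on control 2. Pla2g15 and Pla2g10, named likewise, were lowest there, at 7.91 and 6.56, against 9.17 and 7.69 on control 1. Control 2 exceeded each other array by 1 log2 unit or more for 2 of the 19, as for 3.49% of all genes.

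The list of receptors other than Ptger4, which also holds the receptor-associated Ptgfrn, had 7 of 9 genes higher in DIO, with a median of 0.13. Of all genes 53.3% were higher. Ptgfr was at 3.76 and 3.76 in DIO and 3.78 and 4.66 in control. Ptger2 was under the 25th percentile on every array, at 3.10 to 3.42, and Ptger1, Ptgfr, Ptgdr, Ptgdr2 and Ptgir were under every array median. How far these stand above background is unknown. Tbxa2r, the thromboxane receptor, was at 6.87 and 6.86 in DIO and 6.19 and 6.39 in control. Its difference of 0.58 ± 0.14 had the smallest p of the receptors (limma, unadjusted p = 0.0125, adjusted p = 0.728). Both DIO arrays were above both controls for Tbxa2r and 3 other receptors and below both for 1, Ptgfr. Together these were 5 of 9, where 38.4% of all genes had groups that did not overlap. The brightest gene of the list was Ptgfrn, a membrane protein that associates with the prostaglandin F receptor, which differed by 0.10 ± 0.18.

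Transport and breakdown had 3 of 7 genes higher in DIO and 4 lower, with a median of −0.03. Slco2a1, the transporter that carries prostaglandins into cells for inactivation, was at 11.01 and 10.87 in DIO and 11.36 and 11.34 in control. This was a difference of −0.41 ± 0.13 (limma, unadjusted p = 0.0332, adjusted p = 0.728), opposite in sign to that of Hpgd. For Slco2a1 it was −0.29 with probe sets averaged (limma, unadjusted p = 0.0534) and −0.40 after quantile normalization (limma, unadjusted p = 0.0319). Cbr3, a carbonyl reductase, was at 8.79 and 8.48 in DIO and 9.75 and 9.25 in control (−0.86 ± 0.24, limma, adjusted p = 0.728). Both DIO arrays were below both controls for each.

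The other synthases had 2 of 5 genes higher in DIO and 3 lower, with a median of −0.27. Hpgds, the haematopoietic prostaglandin D synthase, was at 6.15 and 5.89 in DIO and 6.41 and 7.21 in control, with both DIO arrays below both controls (−0.79 ± 0.32, limma, adjusted p = 0.728). Cbr1, a carbonyl reductase that can reduce prostaglandin E to prostaglandin F, was the brightest and differed by −0.29 ± 0.17.

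**Figure D5:**
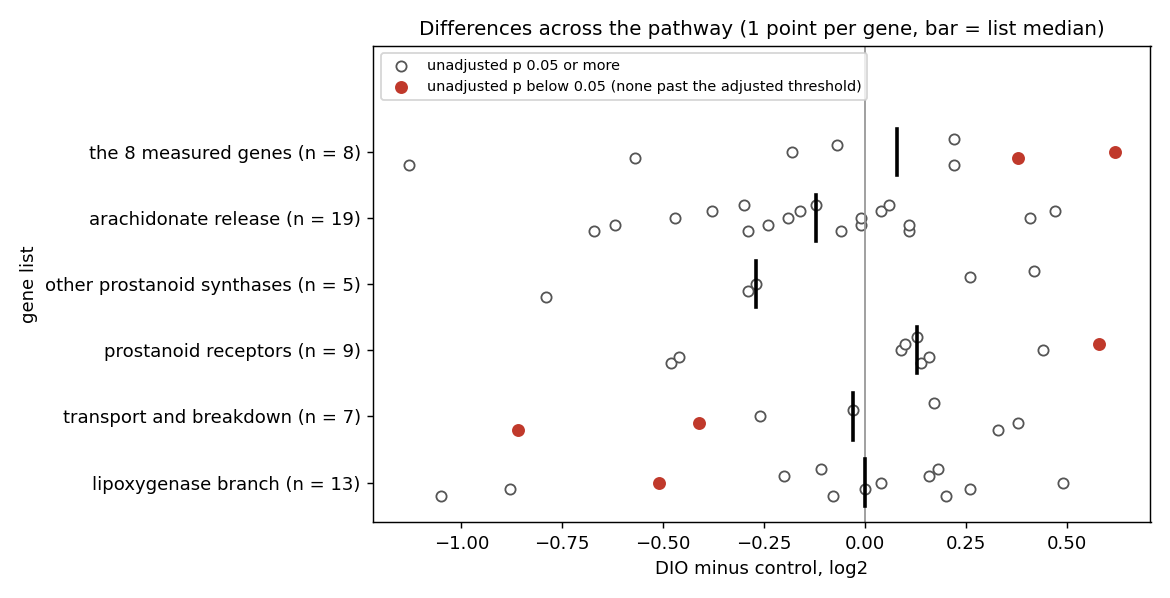
DIO minus control difference (log2, horizontal axis) of each measured gene in the 8 prostanoid genes and 5 further lists, with list medians as bars and genes with an unadjusted p below 0.05 in red. List medians lie between −0.27 and 0.13, and no gene passed the adjusted threshold.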

How the data were processed

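The authors deposited 1 table of log2 expression levels for 45101 probe sets on 4 Affymetrix arrays; biotin-labelled RNA was made from total RNA, per the labels' protocols. The sources used here do not give the background correction, normalization or summary method, and the log2 scale was read from the range of the values. The 64 control probe sets served only as quality measures. Of the rest, 34945 carried 1 gene symbol in the platform annotation, 932 several and 9160 were not listed. Each of 18193 genes was represented by its brightest probe set (by 4-array mean), with no filter on dim probe sets.

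Groups and mouse numbers came from the sample titles. Differences between DIO and control were fitted with limma 3.58.1 in R 4.3.3 (lmFit, eBayes, two-sided, Benjamini-Hochberg over all genes). The fit was tested on simulated data. The 2 arrays of a group limit the precision, and the median reach of a 95% confidence interval was 0.456 to either side, and an exact permutation test could not give a p under 0.333. Of the further pathway genes, the brightest and the one with the smallest p of each list are named, besides those said to be chosen later. The members and lists were chosen with earlier results of these data known. Alternatives were quantile normalization, centring, a filter on dim genes, averaged or separate probe sets, another eBayes, the mouse number as a block and leaving out each array.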

Additional observations from a re-analysis of the deposited data

How the results depend on the processing

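No gene passed the adjusted threshold in limma under quantile normalization, centring on array medians, the filter on dim genes, averaged or separate probe sets, the trended and robust eBayes or the mouse number as a replicate block, and with 1 array left out the count ran from 0 to 483 genes and from 0 to 2 of the 8 prostanoid genes, the highest being without control 1. The replicate block left 0 genes past the threshold and 982 at an unadjusted p below 0.05, against 1198 without it. The numbers name different mice, and with 2 of them a correlation of 0.333 between the deviations of same-numbered arrays gives no pairing. Without the dimmest 40% of genes, where Tbxas1 was left out, 607 genes had an unadjusted p below 0.05. With 1 array left out this count was 171 without DIO 2 and 295 without DIO 1, and it was 2265 and 3689 when control 2 or control 1 was absent.

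Of 79 values of the 8 prostanoid genes under 10 alternatives, 7 changed sign, each with 1 array left out. The ranges over these were −1.37 to 0.23 for Ptgs2, −0.27 to 0.72 for Ptgis, −0.12 to 0.56 for Ptges, −0.40 to 0.05 for Ptges2, −2.26 to 0.00 for Ptger4 and −0.19 to 0.06 for Ptgr1. Ptgs2 and Ptger4 passed the threshold only without control 1. With probe sets averaged, Ptger4 was at −0.72 and Hpgd at 0.48. Among further genes Plaat3 ran from −0.29 to 0.05, Ptgfrn from −0.09 to 0.30 and Lta4h, at 0.00 on all arrays, from −0.03 to 0.03 with an array left out. Lta4h was at 0.05 after quantile normalization, 0.03 after centring and 0.19 with probe sets averaged. The cause of these shifts was not tested. Without detection calls, how far Tbxas1 and the dimmer probe sets of Ptgs2, Ptger4 and Hpgd stand above background is unknown.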

Other observations

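Arachidonic acid also feeds the lipoxygenases, which make leukotrienes and, in skin, lipids of the epidermal barrier. Of 13 measured genes of this branch 6 had a higher and 7 a lower DIO mean, with a median of 0.00. In limma 0 passed the adjusted threshold and 1 had an unadjusted p below 0.05, against 6.58% of all genes. Lta4h, which makes leukotriene B and was the brightest gene of the list, was at 9.59 and 9.61 in DIO and 9.57 and 9.64 in control, a difference of 0.00 ± 0.12. Aloxe3, an epidermal lipoxygenase, had the smallest p and was at 6.98 and 7.05 in DIO and 7.40 and 7.64 in control, a difference of −0.51 ± 0.15 (limma, unadjusted p = 0.0237, adjusted p = 0.728). Both DIO arrays were below both controls. The part of stratified epithelial cells in the Aloxe3 level was not tested.

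Named after their values were seen, Alox12 and Alox12b were highest on control 2. Ltc4s, named likewise, was lowest there, at 8.96 and 8.48 in DIO and 8.94 and 7.53 in control. Alox12, the platelet-type enzyme, was at 4.30 and 4.0 in DIO and 4.22 and 5.85 in control. Alox12b, the epidermal enzyme, was at 4.62 and 5.39 in DIO and 4.27 and 7.85 in control, so that both DIO arrays lay between the controls. Alox5, which starts leukotriene synthesis, was also named after its values were seen, at 6.11 and 6.16 in DIO and 5.83 and 5.92 in control (0.26 ± 0.12, limma, adjusted p = 0.736).

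Among the further prostanoid receptors Ptger3, again named after its values were seen, was at 4.54 and 5.39 in DIO and 4.31 and 6.57 in control, and was highest on control 2.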
